A study of Arabidopsis thaliana with 15 samples.

Results

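The genes described are PGD1 (AT1G64190) and PGD3 (AT5G41670), which encode 6-phosphogluconate dehydrogenases, and PGM, followed in Arabidopsis thaliana roots before and after supply of nitrate or ammonium. Members were every probe set that the array's annotation gives to AT1G64190, to AT5G41670 or to the symbol PGM, which found 3 probe sets of the 22746 measured, 1 for each gene. They are 3 of the 13264 genes named by a probe set with a single gene. PGD1 and PGM lie on chromosome 1 and PGD3 on chromosome 5. The symbol PGM belongs to more than 1 locus in RefSeq. The probe set measured here carries the gene ID of AT1G78050, a phosphoglycerate/bisphosphoglycerate mutase, and not that of AT5G51820, the plastid phosphoglucomutase, so PGM below means the phosphoglycerate mutase gene AT1G78050. AT5G51820 and the cytosolic phosphoglucomutases PGM2 and PGM3 were not analysed here.

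6-Phosphogluconate dehydrogenase catalyses the second NADPH-forming step of the oxidative pentose phosphate pathway, in which 6-phosphogluconate is oxidised and decarboxylated to ribulose 5-phosphate. In roots this pathway is the main source of reductant for plastid nitrite reduction, where NADPH passes electrons to ferredoxin, and both the pathway's genes and those of nitrate and nitrite reductase are known to respond to nitrate. PGD1 and PGD3 are relatives whose products are found in plastids and the cytosol, while PGD2 makes the form of the cytosol and peroxisomes. Phosphoglycerate mutase interconverts 3-phosphoglycerate and 2-phosphoglycerate in lower glycolysis, on the way to phosphoenolpyruvate and the carbon skeletons that take up ammonium, and unlike phosphoglucomutase it does not make glucose phosphates for starch or sucrose.

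All samples were roots of Columbia-0 plants, raised hydroponically as far as growth stage 5.10 and then kept 26 h in medium without nitrogen. The 5 groups of 3 biological replicates were taken just before supply, or after 1.5 h or 8 h with nitrate or with ammonium, each at 1 mM, with roots of at least 5 plants pooled in each of the 15 samples. Expression was read on Affymetrix arrays as RMA values, which are background-corrected and normalized summaries of a probe set on the log2 scale. No roots without nitrogen were harvested at 1.5 h or 8 h, so a change against the roots before supply includes elapsed time and time of day, and the 4 such comparisons share the same 3 samples. In whole roots, a change in the share of a cell type and a change in RNA per cell cannot be told apart. The counter-ions of the supplies were not stated.

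Across probe sets, samples within groups had r = 0.9935 to 0.9978, and their medians lay between 6.76 and 6.83 log2. Of 13 root markers fixed for this report 2 had a named probe set, the root hair expansins EXPA7 and EXPA18, and their mean was 9.87 to 10.59 log2 in the 15 samples. The 1 measured of 13 leaf markers, the Rubisco activase gene RCA, lay at 5.82 to 6.46 log2. The number of arrays limits the precision, and for a difference between groups the median standard error over all probe sets was 0.092 log2. Changes are given below in log2 ± standard error from limma, fitted over all 15 samples (n = 3 per group), and the words rose and fell are kept for genes whose limma p, adjusted over the comparison's 22746 probe sets, was below 0.05.

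PGD1, PGD3 and PGM all rose after either nitrogen source, rose more with nitrate than with ammonium at both times, and stood highest at 1.5 h on nitrate. PGM had the largest rise of the 3 in each supplied group and PGD1 the smallest. For each gene the 5 groups stood in the order nitrate 1.5 h, nitrate 8 h, ammonium 1.5 h, ammonium 8 h and before supply, and no neighbours in this order overlapped. Of all probe sets, 13.4% were lower without overlap at 8 h than at 1.5 h on nitrate and 15% on ammonium. At 8 h on ammonium 12.9% were higher without overlap than before supply. The share for nitrate 8 h above ammonium 1.5 h is not given here. For PGD1 the gaps between the 1.5 h and 8 h samples of 1 ion were 0.03 log2 (nitrate) and 0.05 log2 (ammonium), and these neighbours did not pass the test.

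In the 3 samples before supply PGD1 was at 11.02, 10.93 and 10.90 log2. It was at 12.47, 12.40 and 12.53 after 1.5 h on nitrate and at 12.37, 12.37 and 12.29 after 8 h on nitrate. With ammonium it was at 11.42, 11.46 and 11.45 after 1.5 h and at 11.32, 11.37 and 11.26 after 8 h. The nitrate samples thus formed a high group, and the ammonium samples lay between them and the samples before supply, nearer to the latter.

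PGD3 was at 9.62, 9.70 and 9.66 log2 before supply. It reached 12.02, 11.93 and 12.05 at 1.5 h on nitrate and was at 11.56, 11.49 and 11.38 at 8 h. With ammonium the values were 10.65, 10.63 and 10.56 at 1.5 h and 10.18, 10.35 and 10.34 at 8 h. All 3 samples at 8 h lay below all 3 at 1.5 h for each ion, and above all 3 before supply.

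PGM was at 7.86, 7.97 and 7.90 log2 before supply. It was at 10.93, 10.99 and 11.11 at 1.5 h on nitrate and at 10.63, 10.29 and 10.39 at 8 h. With ammonium it was at 9.24, 9.27 and 9.15 at 1.5 h and at 8.69, 8.95 and 8.75 at 8 h. The spread within groups was widest at 8 h (SD 0.18 with nitrate and 0.13 with ammonium), and still smaller than the steps between groups.

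**Figure D1:**
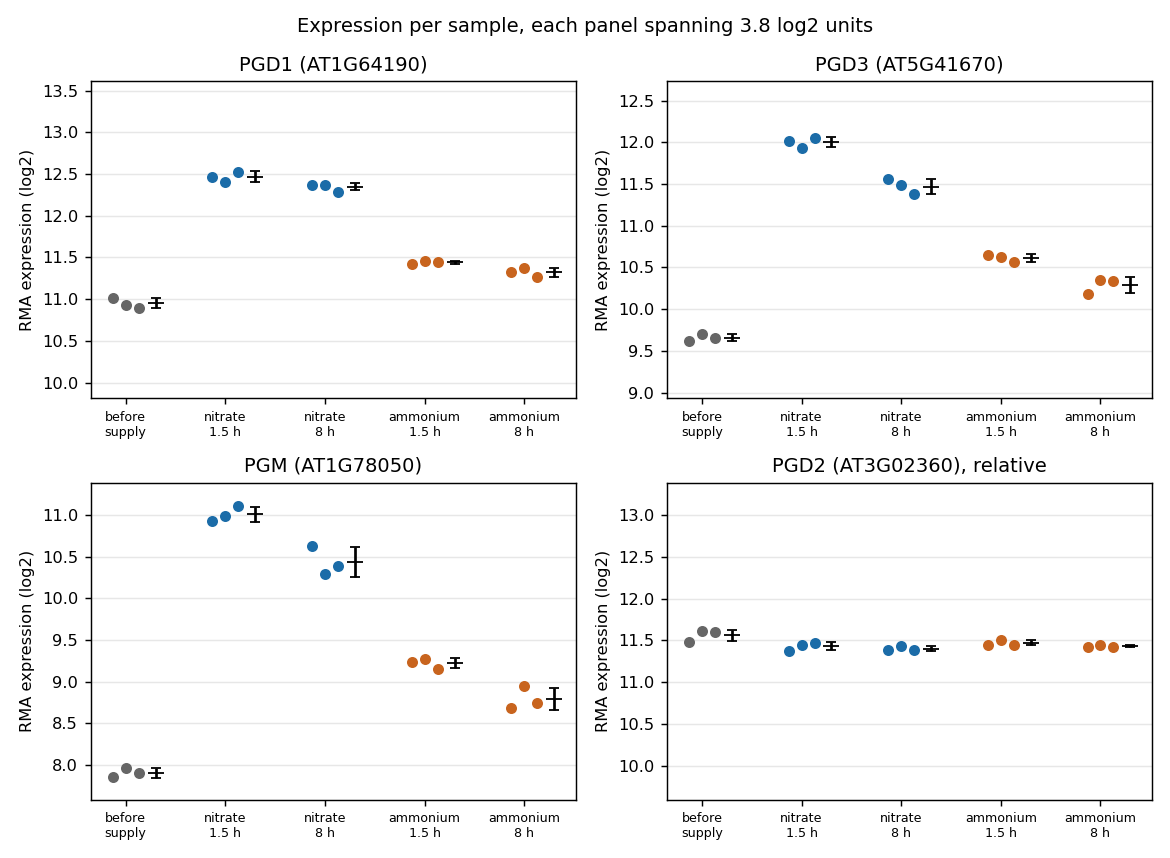
RMA expression (log2) of PGD1, PGD3, PGM and the relative PGD2 in the 15 samples, 3 points per group (grey before supply, blue nitrate, orange ammonium), with the mean and SD as a bar beside them; every panel spans the same number of log2 units. PGD1, PGD3 and PGM step down from nitrate at 1.5 h to the roots before supply without overlap, while PGD2 stays between 11.37 and 11.61.

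At 1.5 h on nitrate against the roots before supply, a comparison that also holds elapsed time, PGM rose by 3.10 ± 0.09 log2 (8.57-fold, limma adjusted p = 2.5e-12). PGD3 rose by 2.34 ± 0.07 (5.07-fold, adjusted p = 2.5e-12) and PGD1 by 1.52 ± 0.06 (2.87-fold, adjusted p = 1.1e-10). All 3 genes thus rose, where 5.97% of all probe sets were called higher, and none overlapped the roots before supply, as held for 9.93% of probe sets in this direction. Of the 22746 probe sets, 15 had a larger change upward than PGM, 47 than PGD3 and 161 than PGD1.

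At 8 h on nitrate the rises over the roots before supply were 2.53 ± 0.09 log2 for PGM (5.77-fold), 1.81 ± 0.07 for PGD3 (3.51-fold) and 1.40 ± 0.06 for PGD1 (2.63-fold), with limma adjusted p between 1.8e-11 and 1.3e-10. All 3 rose, against 8.93% of probe sets called higher, and all 3 were without overlap, against 13.5%. As shares of the log2 rise at 1.5 h these were 91.9% ± 3.91 (SE) for PGD1, 77.5% ± 2.69 for PGD3 and 81.6% ± 2.73 for PGM. Most of the early rise over the roots before supply was therefore still present in the later nitrate samples for all 3 genes.

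The 3 genes also rose after ammonium supply, and these rises, like those with nitrate, include elapsed time. At 1.5 h PGM rose by 1.31 ± 0.09 log2 (2.48-fold, limma adjusted p = 1.2e-07), PGD3 by 0.95 ± 0.07 (1.94-fold, adjusted p = 1.8e-07) and PGD1 by 0.49 ± 0.06 (1.41-fold, adjusted p = 5e-05), so that all 3 were among the 5.97% of probe sets called higher and the 10.6% higher without overlap. At 8 h the rises were 0.88 ± 0.09 for PGM (1.85-fold), 0.63 ± 0.07 for PGD3 (1.55-fold) and 0.37 ± 0.06 for PGD1 (1.29-fold, adjusted p = 0.00057), where 7.72% of probe sets were called higher and 12.9% were higher without overlap. The ammonium rise was 42.3% ± 2.57 (SE) of the nitrate rise on the log2 scale for PGM at 1.5 h, 40.7% ± 2.58 for PGD3 and 32.5% ± 3.59 for PGD1. At 8 h these shares were 35.0% ± 3.19, 34.8% ± 3.36 and 26.2% ± 3.97.

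The direct comparison of the ions, which the design sets up at each time, gave higher levels with nitrate for all 3 genes. At 1.5 h nitrate exceeded ammonium by 1.79 ± 0.09 log2 for PGM (3.46-fold, limma adjusted p = 6e-09), by 1.39 ± 0.07 for PGD3 (2.62-fold, adjusted p = 4.7e-09) and by 1.03 ± 0.06 for PGD1 (2.04-fold, adjusted p = 3.3e-08), with 5.61% of probe sets called higher. At 8 h the differences were 1.64 ± 0.09, 1.18 ± 0.07 and 1.03 ± 0.06, each with an adjusted p no higher than 1.3e-08, and 5.4% of probe sets were called higher. Every nitrate sample lay above every ammonium sample of the same time, which held for 14.4% of probe sets at 1.5 h and 14% at 8 h. At 1.5 h 25 probe sets favoured nitrate by more than PGM did, and at 8 h 58 did.

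Both measured root hair markers moved in part with these genes. EXPA7 and EXPA18 were each higher with nitrate than with ammonium at 1.5 h, by 0.41 log2 (± 0.12 and ± 0.10, limma adjusted p = 0.031 and 0.016), and were not called between the ions at 8 h (0.30 ± 0.12 and 0.03 ± 0.10, adjusted p = 0.13 and 0.92). Both 1.5 h calls were lost when any of 4 single samples was left out (nitrate replicate 1 or 3, ammonium replicate 2 or 3, adjusted p up to 0.15), and that of EXPA7 also with samples centred on their medians (adjusted p = 0.064) and with only the compared groups (adjusted p = 0.077). Over the level before supply both rose at 8 h on nitrate, by 0.38 ± 0.12 and 0.47 ± 0.10 (adjusted p = 0.028 and 0.0038), where the call of EXPA7 was lost without any of 4 single samples (adjusted p = 0.081 to 0.098). EXPA18 also rose at 1.5 h on nitrate (0.41 ± 0.10, adjusted p = 0.015) and at 8 h on ammonium (0.44 ± 0.10). Its 1.5 h nitrate call was lost without any of 4 single samples (adjusted p = 0.051 to 0.075). At 1.5 h on ammonium neither EXPA7 nor EXPA18 was called (−0.13 ± 0.12 and −0.01 ± 0.10). Their mean was 10.03 to 10.23 before supply, 10.28 to 10.59 and 10.43 to 10.58 at the 2 nitrate times and 9.87 to 10.21 and 10.26 to 10.55 at the 2 ammonium times. The leaf marker RCA fell by 0.42 ± 0.10 from 1.5 h to 8 h on ammonium (adjusted p = 0.012, and 0.057 without ammonium 1.5 h replicate 1). The part of these marker changes in those of PGD1, PGD3 and PGM was not tested.

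From 1.5 h to 8 h PGD3 and PGM fell with each ion. With nitrate PGD3 fell by 0.53 ± 0.07 log2 (limma adjusted p = 9.2e-05) and PGM fell by 0.57 ± 0.09 (adjusted p = 0.00057). With ammonium PGD3 fell by 0.32 ± 0.07 (adjusted p = 0.0064) and PGM fell by 0.43 ± 0.09 (adjusted p = 0.0065). The shares of probe sets called lower were 6.05% for nitrate and 5.64% for ammonium. PGD1 was at −0.12 ± 0.06 with nitrate (adjusted p = 0.25, 95% interval −0.25 to 0.01) and at −0.13 ± 0.06 with ammonium (adjusted p = 0.21, interval −0.26 to 0.00), so a fall was not shown for it, although the samples of the 2 times did not overlap. Such a fall without overlap was seen in 13.4% of probe sets with nitrate and 15% with ammonium.

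The difference between the ions was not shown to change with time for any of the 3 genes. From 1.5 h to 8 h it moved by −0.21 ± 0.10 log2 for PGD3 (limma adjusted p = 0.28, 95% interval −0.41 to 0.00), by −0.14 ± 0.13 for PGM (adjusted p = 0.60, interval −0.42 to 0.13) and by 0.00 ± 0.09 for PGD1 (adjusted p = 0.99, interval −0.18 to 0.19). Of all probe sets 4.5% were called here, in either direction, and none of the 3 genes was. In limma's fit none of their unadjusted p-values was below 0.05 either, the smallest being 0.053 for PGD3 (adjusted p = 0.28).

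**Figure D2:**
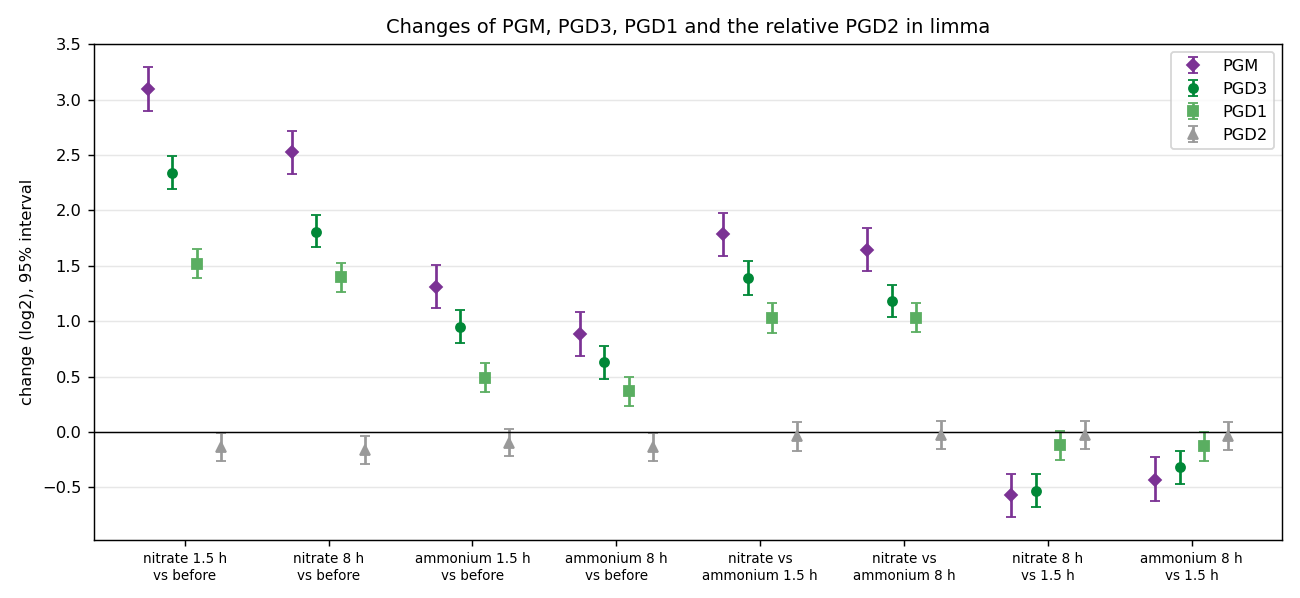
Changes (log2, points) with limma's 95% intervals (bars) of PGM, PGD3, PGD1 and the relative PGD2 in 8 comparisons. In the first 6 comparisons PGM lies above PGD3 and PGD3 above PGD1, all above 0, while PGD2 lies between −0.16 and −0.03.

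Whether the signals of the 3 genes changed by unequal amounts was tested on the log2 difference between 2 probe sets within each array. In this difference any shift of a whole array cancels. Such a difference is no ratio of transcript amounts, but its change between groups shows unequal change of the 2 signals. Whether transcript amounts changed as unequally was not tested. All 3 pairs were compared, and p-values were adjusted over them. All 3 differences were negative in every sample. The ions were compared with both times kept as strata (6 against 6 samples). With nitrate PGM minus PGD1 was higher than with ammonium by 0.69 log2, PGM minus PGD3 by 0.43 and PGD3 minus PGD1 by 0.26. Each had p = 0.005 in a two-sided exact permutation test, the smallest that this design allows, and an adjusted p of 0.005. The nitrate and ammonium samples did not overlap for the differences that hold PGM, and overlapped for PGD3 minus PGD1 (−0.92 to −0.46 with nitrate, −1.14 to −0.78 with ammonium).

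Against the roots before supply, the supplied samples (12 against 3) had PGM minus PGD1 higher by 1.01 log2, PGM minus PGD3 higher by 0.52 and PGD3 minus PGD1 higher by 0.49. The two-sided exact permutation test gave adjusted p = 0.0033, 0.0033 and 0.0044. The within-array difference PGD3 minus PGD1 was −1.39, −1.23 and −1.24 before supply, −0.46, −0.47 and −0.48 at 1.5 h on nitrate and −0.82, −0.88 and −0.92 at 8 h on nitrate. PGM minus PGD3 averaged −0.99 ± 0.08 (SD, n = 3) at 1.5 h on nitrate and −1.03 ± 0.14 at 8 h, a difference smaller than either SD, while PGD3 minus PGD1 did not overlap between these times.

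The order of the rises was the reverse of the order of signal before supply. Probe sets brighter than PGD1 made up 3.66% to 4.05% of each array before supply and 0.426% to 0.545% at 1.5 h on nitrate. For PGM they made up 32.2% to 33.9% before supply and 3.3% to 4.11% at 1.5 h on nitrate. Array signal flattens near its upper end, and the part of this in the smaller change of PGD1 was not tested.

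**Figure D3:**
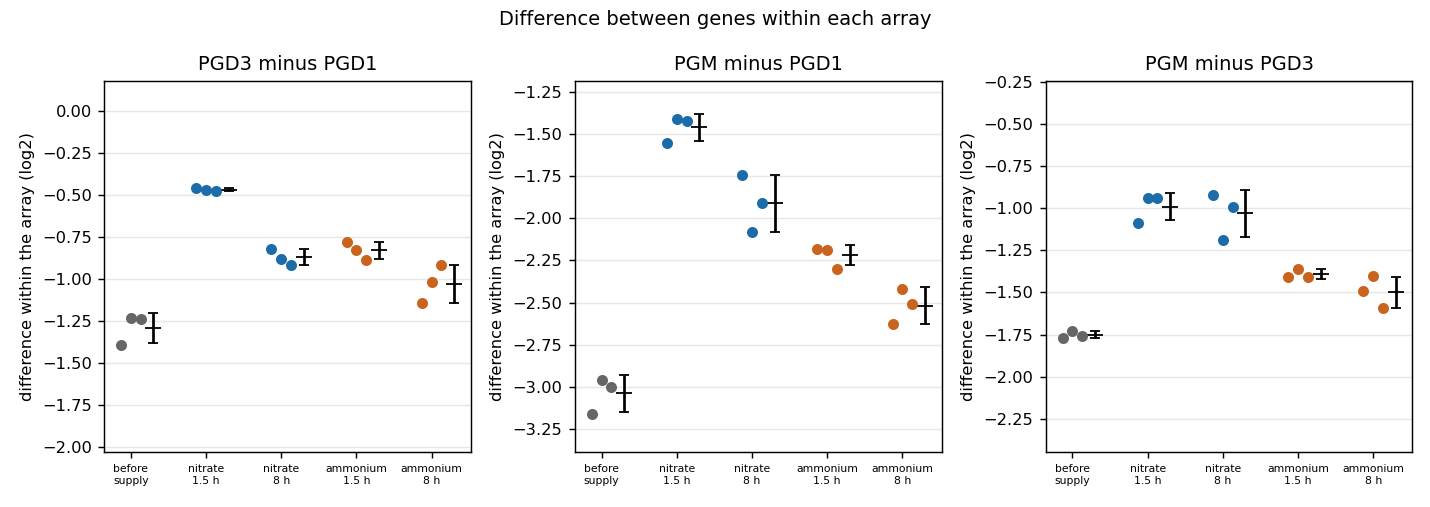
Difference within each array (log2) between PGD3 and PGD1, PGM and PGD1, and PGM and PGD3, 3 points per group with the mean and SD as a bar beside them. All 3 differences are lowest before supply, and the 2 that hold PGM are higher in every nitrate sample than in any ammonium sample.

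PGD2 (AT3G02360), the remaining 6-phosphogluconate dehydrogenase gene, was not called in any comparison. It was at 11.48, 11.61 and 11.60 log2 before supply and between 11.37 and 11.50 in the 12 supplied samples. Its changes were −0.14 ± 0.06 log2 at 1.5 h on nitrate (limma adjusted p = 0.17), −0.16 ± 0.06 at 8 h on nitrate (adjusted p = 0.065), −0.10 ± 0.06 at 1.5 h on ammonium (adjusted p = 0.35) and −0.14 ± 0.06 at 8 h on ammonium (adjusted p = 0.14). With before-supply replicate 1 left out, the change at 8 h on nitrate was −0.21 and was called (adjusted p = 0.024). With all samples, this change was also called when dim probe sets were left out (adjusted p = 0.04), with a variance trend and robust estimation (adjusted p = 0.021) and with array weights (adjusted p = 0.0036). The 3 measured genes of the family therefore split into 2 that rose in all 4 supplied groups and 1 for which no rise was called. In a single supplied group 5.97% to 8.93% of all probe sets were called higher, and the share for all 4 is not given here. Of the 14 loci listed for the oxidative pentose phosphate pathway, PGD1, PGD2 and PGD3 had a named probe set. The glucose-6-phosphate dehydrogenase and 6-phosphogluconolactonase genes were not analysed here.

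Among the 14 measured genes of the phosphoglycerate mutase family, PGM and AT1G22170 were the 2 with a rise in all 4 supplied groups. In a single supplied group 5.97% to 8.93% of all probe sets were called higher, and the share for all 4 is not given here. AT1G22170 was at 7.19, 7.39 and 7.36 log2 before supply, at 9.16, 9.07 and 9.22 at 1.5 h on nitrate and at 8.10, 8.08 and 8.13 at 8 h on nitrate. It rose by 1.84 ± 0.10 log2 at 1.5 h on nitrate (limma adjusted p = 3.2e-09) and by 0.52 ± 0.10 at 1.5 h on ammonium (adjusted p = 0.0022). At 8 h it was higher by 0.79 ± 0.10 with nitrate and by 0.48 ± 0.10 with ammonium. From 1.5 h to 8 h on nitrate it fell by 1.05 ± 0.10 (adjusted p = 4.8e-06), and the nitrate samples at 8 h were above those of ammonium by 0.31 ± 0.10 (adjusted p = 0.068). Its ion difference moved by −1.0 ± 0.14 between the times (adjusted p = 0.00089). For PGM such a change was not shown, and the difference between the 2 genes in this was not tested.

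AT5G04120, another member of the family, went the other way. It was at 11.57, 11.78 and 11.89 log2 before supply, at 10.56, 10.66 and 10.83 at 1.5 h on nitrate and at 7.51, 5.35 and 4.75 at 8 h on nitrate. With ammonium it was at 11.22, 11.25 and 11.28 at 1.5 h and at 7.73, 8.47 and 9.21 at 8 h. It fell by 5.88 ± 0.49 log2 at 8 h on nitrate (limma adjusted p = 2.6e-07) and by 3.28 ± 0.49 at 8 h on ammonium (adjusted p = 0.00021). At 1.5 h it was at −1.06 ± 0.49 with nitrate (adjusted p = 0.20) and at −0.50 ± 0.49 with ammonium (adjusted p = 0.59), where the fit's standard error includes the wide spread at 8 h on nitrate (SD 1.45, n = 3). Without nitrate 8 h replicate 1 the early change with nitrate was called (adjusted p = 0.012), and with only the 2 groups in the fit both early changes were (adjusted p = 0.0003 and 0.013). At 8 h AT5G04120 was lower with nitrate than with ammonium, by −2.6 ± 0.49 (limma adjusted p = 0.002). The change of its ion difference between the times was not called in the unweighted fit to all samples. It was called without nitrate 8 h replicate 1 (−2.85, adjusted p = 0.00093) and with array weights (−2.35, adjusted p = 0.025).

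Smaller changes were seen in other members of this family, beside shares of all probe sets called lower than before supply of 7.29% and 11.7% at 1.5 h and 8 h on nitrate and of 7.83% and 9.91% at 1.5 h and 8 h on ammonium. AT3G05170 fell by 0.66 ± 0.10 log2 at 1.5 h on nitrate (limma adjusted p = 0.00019) and AT2G17280 fell by 0.54 ± 0.09 (adjusted p = 0.0005). AT2G17280 also fell by 0.44 ± 0.09 at 8 h on nitrate (adjusted p = 0.0017). It was lower with nitrate than with ammonium at 1.5 h (−0.6 ± 0.09, adjusted p = 0.00025) and was not called between the ions at 8 h (−0.25 ± 0.09, adjusted p = 0.095). AT3G05170 fell by 0.42 ± 0.10 at 8 h on ammonium (adjusted p = 0.0073). It also fell by 0.35 ± 0.10 at 1.5 h on ammonium (adjusted p = 0.027) and by 0.31 ± 0.10 at 8 h on nitrate (adjusted p = 0.037). Both of these last calls were lost without some single samples (adjusted p = 0.055 to 0.12 and 0.051 to 0.11). AT3G60420 rose by 2.19 ± 0.36 at 8 h on ammonium (adjusted p = 0.00043) from 4.56, 3.92 and 4.44 before supply, around the lower quartile of the arrays, and its second probe set, which was dim throughout, was at −0.13 ± 0.07 (adjusted p = 0.27). AT3G60440 rose by 0.31 ± 0.09 at 1.5 h on nitrate (adjusted p = 0.037), which no longer passed when before-supply replicate 1 or 3, or nitrate replicate 1 or 3, was left out (adjusted p = 0.079 to 0.15). AT3G60450 was lower with nitrate than with ammonium at 1.5 h, by −0.35 ± 0.08 (adjusted p = 0.0074), and at 8 h, by −0.32 ± 0.08 (adjusted p = 0.013). Its 8 h call was lost without some single samples (adjusted p = 0.052 to 0.062). AT4G09520, AT3G50520, AT5G62840, AT1G08940, AT5G64460 and AT5G22620 passed in none of the 4 comparisons with the roots before supply, where their changes lay between −0.29 and 0.18. The other 13 family members had a median change of −0.11 log2 at 1.5 h on nitrate, against −0.04 for all probe sets. Of these 13, 2 were called higher and 2 lower, where 5.97% of all probe sets were called higher and 7.29% lower.

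**Figure D4:**
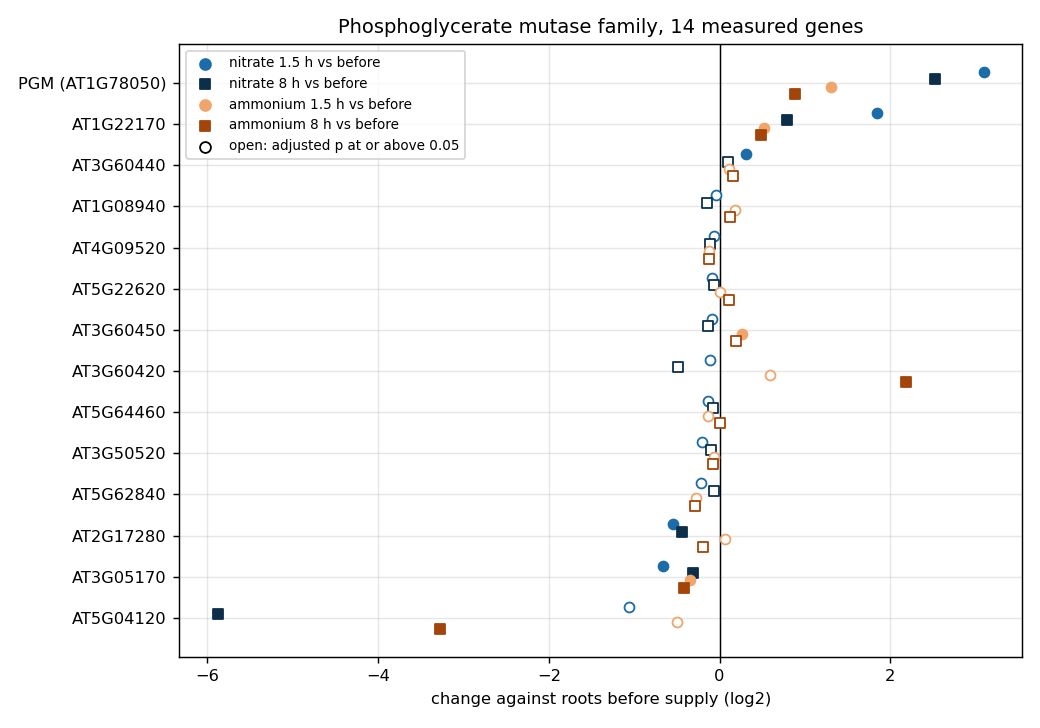
Changes against the roots before supply (log2) of the 14 measured phosphoglycerate mutase family genes in the 4 supplied groups (blue nitrate, orange ammonium, circles 1.5 h, squares 8 h), filled where limma's adjusted p was below 0.05. PGM and AT1G22170 are filled and to the right of 0 in all 4 groups, and AT5G04120 reaches −5.88 at 8 h on nitrate.

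Further genes of sugar phosphate and reductant supply were read from lists of loci, of which few had a named probe set. The measured member of the phosphoglucomutase family, AT1G70820, lay between 3.10 and 3.49 log2 in all 15 samples, below the lower quartile of every array (4.36 to 4.52), so a level above background was not shown for it. Cytosolic phosphoglucose isomerase (AT5G42740), which interconverts glucose and fructose phosphates, rose by 0.26 ± 0.07 at 8 h on nitrate (limma adjusted p = 0.01) and by 0.27 ± 0.07 at 8 h on ammonium (adjusted p = 0.01). Of 4 genes of the non-oxidative pentose phosphate pathway none was called at 1.5 h with either ion. Of all probe sets 5.97% were called higher there with each ion, and 7.29% (nitrate) and 7.83% (ammonium) lower. The 4 genes are too few to show a departure from these shares. AT5G44520, a ribose 5-phosphate isomerase family gene, fell by 0.61 ± 0.13 at 8 h on nitrate (adjusted p = 0.003), and AT1G63290, a ribulose phosphate epimerase gene, was at −0.17 ± 0.06 there (adjusted p = 0.076).

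The plastid xylulose 5-phosphate translocator gene AT5G17630 was at 0.04 ± 0.08 log2 at 1.5 h on nitrate (limma adjusted p = 0.79) and fell by 0.31 ± 0.08 at 8 h on ammonium (adjusted p = 0.011, but 0.054 when before-supply replicate 3 was left out and 0.056 when ammonium 8 h replicate 3 was). It was higher with nitrate than with ammonium, by 0.29 ± 0.08 at 1.5 h (adjusted p = 0.026) and by 0.31 ± 0.08 at 8 h (adjusted p = 0.016). Both ion calls were lost without some single samples (adjusted p = 0.057 to 0.097 and 0.059 to 0.084). Of 4 other genes for NADPH-forming enzymes, 3 NADP isocitrate dehydrogenases and the non-phosphorylating glyceraldehyde phosphate dehydrogenase ALDH11A3, none was called with nitrate at either time. Of all probe sets 5.97% were called higher and 7.29% lower at 1.5 h on nitrate, and 8.93% and 11.7% at 8 h. The 4 genes are too few to show a departure from these shares. ALDH11A3 rose by 0.45 ± 0.11 at 8 h on ammonium (adjusted p = 0.0083), from levels around the lower quartile. At 8 h it was lower with nitrate than with ammonium, by −0.48 ± 0.11 (adjusted p = 0.0074). APL3, a large subunit of ADP-glucose pyrophosphorylase in starch synthesis, fell by 0.65 ± 0.14 at 8 h on nitrate (adjusted p = 0.0025) and fell by 0.58 ± 0.14 at 8 h on ammonium (adjusted p = 0.0064). None of the 13 loci listed for nitrate assimilation had a named probe set, so nitrate and nitrite reductase were not analysed here.

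Of 7 measured glycolysis genes, 1 rose and none fell at 1.5 h on nitrate, and 3 rose and 2 fell at 8 h on nitrate. Of all probe sets 5.97% rose and 7.29% fell at 1.5 h, and 8.93% rose and 11.7% fell at 8 h. GAPC2, a cytosolic glyceraldehyde phosphate dehydrogenase, rose by 0.53 ± 0.07 log2 at 1.5 h on nitrate (limma adjusted p = 3.8e-05) and was higher with nitrate than with ammonium by 0.41 ± 0.07 at 1.5 h (adjusted p = 0.00073) and by 0.33 ± 0.07 at 8 h (adjusted p = 0.0035). At 8 h on nitrate GAPC2 rose by 0.63 ± 0.07, the phosphoglycerate kinase gene AT1G56190 by 0.40 ± 0.08 and the triose phosphate isomerase gene TPI by 0.34 ± 0.07. At 8 h on ammonium GAPC2 rose by 0.29 ± 0.07 (adjusted p = 0.0063). The fallers, named after their values were seen, were the subunit genes of pyrophosphate-dependent phosphofructokinase AT1G12000 (−0.30 ± 0.07, adjusted p = 0.0036) and AT1G20950 (−0.24 ± 0.07, adjusted p = 0.018). AT1G20950 no longer passed without before-supply replicate 2 (adjusted p = 0.059), without nitrate 8 h replicate 1 (adjusted p = 0.09) and with only the compared groups in the fit (adjusted p = 0.11). At 8 h on ammonium AT1G12000 also fell (−0.27 ± 0.07, adjusted p = 0.0085, but 0.072 with only the compared groups). There AT1G20950 was at −0.20 ± 0.07 (adjusted p = 0.051), and it was called under some alternatives. Neither was called between the ions at 8 h (−0.03 ± 0.07 and −0.04 ± 0.07). The median of the 7 was −0.13 log2 at 8 h on nitrate, against −0.02 for all probe sets.

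The genes most like each member were sought by Pearson's r over the 15 samples among 572 probe sets with 1 named gene and group means that spanned at least 1 log2. PGM and PGD3 were each other's nearest, at r = 0.997. PGD1 correlated at 0.984 with PGM and at 0.982 with PGD3. Next to PGM and PGD3 stood AT4G09620 (r = 0.988 and 0.983), AT3G18560 (0.987 and 0.986) and AT1G67920 (0.984 and 0.98), and next to PGD1 AT4G02920 (0.985), AT1G61740 (0.984) and AT2G28780 (0.982). In all, 37 of these probe sets reached r = 0.95 with PGD1, 25 with PGD3 and 30 with PGM, so many other genes of this size of change had a like pattern. These points share the arrays, their normalization and the 5 groups.

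Hypoxia response genes differed between samples as well. The mean of 8 measured core hypoxia genes was 6.91 to 7.84 log2 before supply, 7.71 to 10.05 at 1.5 h on nitrate and 9.15 to 10.13 at 1.5 h on ammonium. At 8 h it was 7.13 to 8.60 with nitrate and 8.22 to 9.33 with ammonium. Of the 8 genes, 7 were called higher at 1.5 h on ammonium and 3 at 1.5 h on nitrate, among them AT1G33055 (2.89 ± 0.49 and 2.30 ± 0.49). Of all probe sets 5.97% were called higher in each. At 8 h none of the 8 was called higher on nitrate and 3 were on ammonium, against 8.93% and 7.72% of probe sets. The calls of CML38 at 1.5 h on nitrate and at 8 h on ammonium were each lost without any of 4 single samples (limma adjusted p = 0.087 to 0.17 and 0.057 to 0.076). AT5G66985 rose by 1.49 ± 0.22 at 1.5 h on ammonium (limma adjusted p = 0.00027), as did CML38, by 3.60 ± 0.66 (adjusted p = 0.0015). The part of this in the rises of PGD1, PGD3 and PGM with either ion was not tested.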

How the data were processed

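The deposited values are log2 RMA expression per probe set, computed by the authors with RMA and limma per the submitters' processing notes; versions are not given in the sources used here. Values were used as deposited for all 22746 probe sets. Of these, 13513 had 1 gene in the platform annotation, 503 had several and 8730 had none listed, and 13436 matched the RefSeq table (TAIR10.1), which gave names and functions. No sequences were used here.

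Samples were grouped by their labels. A linear model with 5 group means was fitted to all 15 samples with limma 3.58.1 (R 4.3.3; lmFit, eBayes), and p-values were adjusted per comparison by Benjamini-Hochberg over all probe sets. The residual degrees of freedom were 10 and the prior ones 5.107. The fit was tested on simulated data. Within-array differences between 2 genes were tested by exact permutation (Python 3.11.15), between the ions over 400 arrangements within times and on supply over 455.

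The members and lists were chosen with earlier results of these data known. Named were all members and their measured relatives, up to 3 called genes of each other list with the smallest adjusted p, or its smallest p where none was called, and the 5 genes most like each member. Alternatives were a second quantile normalization, median centring, leaving out dim probe sets, a variance trend with robust estimation, array weights, only the compared groups, the replicate block and each sample left out.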

Additional observations from a re-analysis of the deposited data

Results flagged for a closer look

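For 2 relatives of PGM in the phosphoglycerate mutase family the difference between nitrate and ammonium changed from 1.5 h to 8 h by the test of that change itself. For AT1G22170 it moved by −1.0 log2 (95% interval −1.31 to −0.70, limma adjusted p = 0.00089), from 1.31 at 1.5 h to 0.31 at 8 h. For AT3G60420 it moved by −1.98 log2 (95% interval −3.05 to −0.90, limma adjusted p = 0.037). The call for AT3G60420 was lost with a variance trend and robust estimation (adjusted p = 0.096) and without any 1 of 10 samples (adjusted p = 0.051 to 0.091). Its second, dim probe set moved by −0.02.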

How the results depend on the processing

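The 27 results of PGD1, PGD3 and PGM under 22 alternatives each, and the 6 results on pairs of them without each sample in turn, kept their side of the threshold in all 684 cases, and every called one kept its direction. The change of PGD1's ion difference, which was not called, lay on either side of 0 (−0.03 to 0.04 without single samples). Without single samples the change at 1.5 h on nitrate was 1.49 to 1.55 log2 for PGD1, 2.31 to 2.37 for PGD3 and 3.05 to 3.14 for PGM. The weakest calls were the falls from 1.5 h to 8 h on ammonium, with a highest limma adjusted p of 0.039 for PGD3 and 0.038 for PGM. With the replicate block the change of PGM at 1.5 h on nitrate was 3.10 log2 (limma adjusted p = 1.3e-10), and no call of PGD1, PGD3 or PGM changed under it. The block raised the probe sets called by 1.08 to 1.17 times over the 9 comparisons. Deviations from group means correlated above 0.1 in 14 of 30 pairs of same-numbered samples (median 0.0918) and in 10 of 60 pairs of other numbers (median −0.0474), and 8 of 15 samples correlated best with their own number. Same-numbered samples thus deviated together more often, but not every pair did, and the labels name no shared batch, so the numbers were not taken to pair samples. For other named genes, 288 results under the alternatives gave 6309 cases, of which 6076 kept their side of the threshold, 99 gained a call, 134 lost one and none reversed; among those gained, array weights called PGD2 at 1.5 h on nitrate (adjusted p = 0.01), 8 h on nitrate (0.0036) and 8 h on ammonium (0.0097). Weighting arrays by quality (weights before supply were 7.64 for replicate 3 and 0.252 for replicate 1) raised the probe sets called from 3017 to 6061 at 1.5 h on nitrate, from 3139 to 6151 at 1.5 h on ammonium, from 4689 to 7177 at 8 h on nitrate, from 4008 to 6631 at 8 h on ammonium and from 1023 to 1607 for the change of the ion difference. With only the compared groups, 2069 were called at 1.5 h on ammonium. The causes were not tested. Another probe set per gene could not be tried for PGD1, PGD3 or PGM, which have 1 each.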
